A study of Mus musculus with 4 samples.

Results

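Transcripts of 10 transcription factor genes of the trophoblast, the first lineage set aside in the mouse embryo and a source of the placenta, were examined in mouse embryonic stem (ES) cells on 4 Affymetrix arrays. The genes were Cdx2, Eomes, Hand1, Elf5, Tfap2c, Tfap2a, Gata2, Gata3, Ets2 and Tead4. They were chosen by name, and every probe set annotated to exactly 1 of these symbols was taken, which gave 22 of the 45101 probe sets and 10 of 18193 named genes. Each of 4 groups was 1 array. They were ES cells with a constitutive knockout (KO) of Ring1B, their control labelled wild-type, ES cells sampled at day 4 of a double KO of Ring1A and Ring1B that was conditional and generated with OHT, and their control, also labelled wild-type. The labels name no cell line, clone or feeder layer and do not say whether the double KO control received OHT. Ring1A (gene Ring1) and Ring1B (gene Rnf2) are the ubiquitin ligases of Polycomb repressive complex 1, which keeps developmental genes silent. No array was replicated, so there was no error estimate and no statistical test, the number of arrays limits the precision, and every difference below is a difference between 2 arrays.

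In the early embryo Tead4, a DNA-binding partner of the Hippo pathway coactivator Yap1, acts upstream of Cdx2 in the outer cells that become trophectoderm. Gata3 acts beside Cdx2 there. Eomes, Elf5, Ets2 and Tfap2c maintain trophoblast stem cells under FGF signalling, while Hand1 drives the differentiation of trophoblast giant cells and Gata2 acts with Gata3 on placental genes. ES cells normally keep this programme off, with Oct4 (gene Pou5f1) opposing Cdx2. Several of these genes also act outside the trophoblast, such as Eomes and Hand1 in mesoderm and Tfap2a in surface ectoderm and neural crest.

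Start-site sequence was available for 7 of the 10 genes in 10 windows of 300 bases, which run from 250 bases before to 50 after an annotated start (RefSeq, GRCm38.p6). Windows of 3 genes are shown because the genes differ most in what the arrays read: Gata3 and Eomes had the largest differences in the double KO comparison, and Elf5 was not measurable. CG dinucleotides are in capitals, and each sequence is written 5′ to 3′ on the gene's strand. The Gata3 window lies at chr2:9878551-9878850 (minus strand), the Eomes window at chr9:118477939-118478238 (plus strand) and the first Elf5 window at chr2:103411848-103412147 (plus strand).
Gata3: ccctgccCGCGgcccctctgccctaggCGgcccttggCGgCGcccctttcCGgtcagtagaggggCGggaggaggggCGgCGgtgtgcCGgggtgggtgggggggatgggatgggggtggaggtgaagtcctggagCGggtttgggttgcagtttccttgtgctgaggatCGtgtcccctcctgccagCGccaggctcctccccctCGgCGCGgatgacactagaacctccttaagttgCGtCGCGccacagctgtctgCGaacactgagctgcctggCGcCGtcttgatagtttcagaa
Eomes: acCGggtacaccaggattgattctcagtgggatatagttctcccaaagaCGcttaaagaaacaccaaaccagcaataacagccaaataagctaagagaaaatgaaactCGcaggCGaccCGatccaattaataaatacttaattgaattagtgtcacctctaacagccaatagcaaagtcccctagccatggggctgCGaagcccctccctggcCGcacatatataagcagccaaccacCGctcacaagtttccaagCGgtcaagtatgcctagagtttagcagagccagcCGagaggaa
Elf5: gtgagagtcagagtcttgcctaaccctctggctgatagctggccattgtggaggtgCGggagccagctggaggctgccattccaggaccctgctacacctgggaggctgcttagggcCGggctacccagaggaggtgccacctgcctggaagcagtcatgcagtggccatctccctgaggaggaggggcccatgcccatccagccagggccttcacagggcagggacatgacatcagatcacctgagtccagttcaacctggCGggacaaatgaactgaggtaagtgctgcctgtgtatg
The Gata3 window held 22 CG dinucleotides, a number reached by 23.1% of all 32851 such windows. The Eomes window held 10, reached by 43.5%, and the first Elf5 window held 3, reached by 76.7%. The other windows ranged from 10 at the second Elf5 start, over 11 and 15 at the Tfap2a starts, 18 at Cdx2 and 29 and 32 at the Gata2 starts, with 30 at Ets2. The median over all windows was 7. The palindrome GCCNNNGGC, bound by AP-2 factors such as Tfap2a and Tfap2c, was matched at 3 positions in the Gata3 window, at 1 in the Cdx2 window and at 1 in the second Gata2 window, and 16.6% of all windows hold it. GGAATG, the core of the TEAD site, was matched on either strand in the first Elf5 window and the second Gata2 window, against 14.7% of all windows. A GATA factor's site, AGATAA, was matched on either strand in none of the 10 windows, against 11.2% of all. No overlap between these motifs was looked for, and a match is a description of the letters only.

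The values are signal intensities after each array was multiplied to a common 2%-trimmed mean of 277. Signals below 36.6, the 40th percentile of all named probe sets, were set to that floor before log2 differences were taken. A difference with 1 array at the floor is a lower bound, written "at least". As deposited, the trimmed means were 500.0 and 500.0 on the Ring1B KO array and its control, and 147 and 160 on the double KO array and its control. Rnf2 did not check the labels: at its brightest probe set it read 2775 in Ring1B KO, against 2579.7 in its control, and 1986 in double KO, against 2182 in its control, and whether this probe set lies in the deleted part is not given in the sources used here. Ring1 read 164 in Ring1B KO, against 146 in its control, and 55.6 in double KO, against 44.7 in its control. It was thus near the floor on both arrays of the double KO pair. Ring1 differed by −1.71 on the log2 scale between the double KO control and the Ring1B KO control, where 8.19% of all genes were at least 2-fold lower. The reason was not tested. The arrays are therefore called by their labels throughout. Whether the double KO array and its control were interchanged cannot be settled from these values, and an interchange would turn the sign of every difference between them. Pou5f1, Nanog and Sox2 read 2470 or more on every array, far above the floor.

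Of the 10 genes, 9 were above the floor on at least 1 array, and 5 (Eomes, Tfap2c, Gata2, Ets2 and Tead4) were above it on all 4. Of the 22 probe sets, 18 were above the floor somewhere and 10 everywhere. On the array labelled double KO control 8 of the 9 genes read highest, Tfap2c being the exception, whereas that array reads highest for 31.9% of the 13139 genes above the floor on any array. By probe set it was highest for 14 of 18, against 28.4% of all. The Ring1B KO control read lowest for 5 of the 9 genes (22.7% of all genes), the double KO array for 3 (29.4% of all) and the Ring1B KO array for 1 (28.1% of all). These orders carry no error, because no array was repeated, so neighbours in an order cannot be said to differ.

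**Figure D1:**
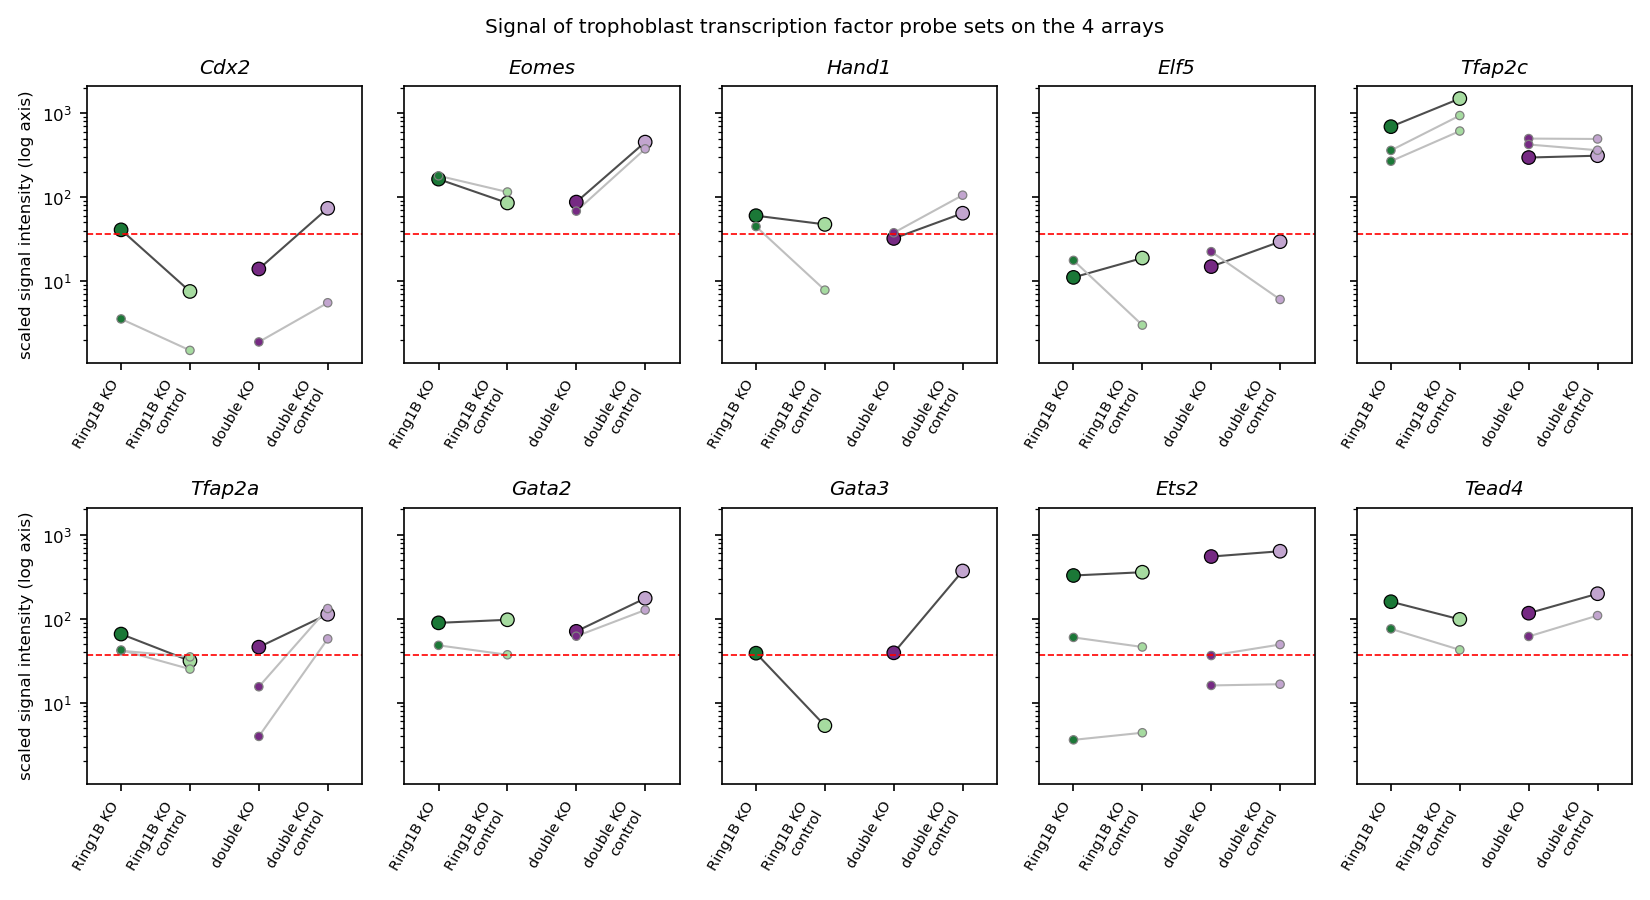
Scaled signal intensity (log axis) of every probe set of the 10 genes on the 4 arrays, a panel per gene; large points are the probe set that stands for the gene, small points its other probe sets, lines join each KO with its own control, and the dashed line is the floor of 36.6. By the large points the double KO control is the highest array in every panel except Tfap2c, and all Elf5 points lie under the floor.

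The array labelled double KO had lower signals than its control for most of these factors. In bulk RNA such as this, fewer cells of a type and less RNA per cell cannot be told apart. Of the 9 genes above the floor, 5 (Gata3, Eomes, Gata2, Tfap2a and Cdx2) were lower by 2-fold or more and 0 higher by 2-fold or more, against 10% lower and 3% higher among all 12384 genes. The differences ran from −3.24 to −0.07 on the log2 scale with a median of −1.01, against a median of −0.05 over all genes. That median is the value of Cdx2, a bound that depends on the floor. All 9 were below 0, as were 54.7% of all genes, but Ets2 and Tfap2c stood so near 0 that they turned to 0.08 and 0.22 with the arrays scaled to a common median, and Tfap2c to 0.02 under quantile normalization. Under the common median the whole array shifted too, with a median of 0.25 over genes measured on both arrays, against −0.02 in the scaling used here, and with 6.71% of all genes lower and 6.06% higher. The count of these factors stayed at 5 lower and 0 higher there, with Hand1 (−1.20, by its second probe set) in place of Cdx2 (−0.98).

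Gata3, on chromosome 2 (9857078 to 9887953, GRCm38.p6), is a zinc finger factor that can start the trophoblast programme in parallel to Cdx2. Its only probe set read 39.2 in double KO, against 370 in its control. It read 38.8 in Ring1B KO, against 5.32 in its control. The double KO control thus stood apart from the other 3 arrays, which were close to or below the floor. The double KO difference was −3.24, or 9.44-fold lower, the 16th lowest of the 12384 genes. In the Ring1B comparison the difference was at least 0.09, because the control lay under the floor.

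Gata2, the second GATA factor (chromosome 6, 88193891 to 88207032), is expressed in trophoblast giant cells and in blood progenitors. Its brighter probe set read 70.7 in double KO, against 175 in its control, which is 2.47-fold lower. The other probe set read 61.9 in double KO, against 127 in its control, or 2.05-fold lower. Both put the double KO control highest of the 4 arrays. In the Ring1B pair the brighter set read 89.2 in the KO, against 97.1 in its control (−0.12), and the other read 48.2 in the KO, against 37.2 in its control (0.37), so that the probe sets took different directions, both under 2-fold.

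Eomes encodes a T-box factor of trophoblast stem cells that is also needed in the primitive streak (chromosome 9, 118478186 to 118486132). Its brighter probe set read 87.5 in double KO, against 453 in its control, and 164 in Ring1B KO, against 85.3 in its control. The second probe set read 68.3 in double KO, against 377 in its control, and 180 in Ring1B KO, against 115 in its control. Both probe sets put the double KO control highest and the Ring1B KO array second, and they order the other 2 arrays differently. It was 5.18-fold and 5.52-fold lower in double KO by the 2 probe sets, and 1.92-fold and 1.56-fold higher in Ring1B KO. The first of these differences was the 93rd lowest of 12384 genes in the double KO comparison, and the 497th highest of 12366 in the Ring1B comparison.

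Cdx2 is the caudal-type homeobox factor that secures trophectoderm fate against Oct4 (chromosome 5, 147300900 to 147307249). Its brighter probe set read 14.0 in double KO, against 73.7 in its control, and 40.8 in Ring1B KO, against 7.54 in its control. The values of the double KO array and the Ring1B KO control lie under the floor, so the differences were at least 2.02-fold lower in double KO and at least 1.12-fold higher in Ring1B KO. The second probe set was under the floor on all arrays, at most 5.53. Cdx2 is thus a dim gene here whose call rests on 1 probe set.

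Tfap2a, an AP-2 factor of surface ectoderm and neural crest that also acts in trophoblast (chromosome 13, 40713802 to 40738238), had 3 probe sets. They read 45.8, 15.5 and 3.96 in double KO, against 113, 132 and 57.5 in its control. All 3 were lower in double KO, by 2.46-fold, at least 3.61-fold and at least 1.57-fold. In Ring1B KO they read 65.6, 41.5 and 42.3, against 31.5, 35.1 and 25.1 in its control. Each control value lay under the floor, so the Ring1B differences were bounds of at least 1.79-, 1.13- and 1.16-fold higher.

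Tfap2c, the AP-2 factor of trophoblast stem cells that is also transcribed in ES cells and germ cells (chromosome 2, 172545678 to 172558622), did not follow the others. Its 3 probe sets read 692, 361 and 269 in Ring1B KO, against 1496, 940 and 614 in its control. All 3 were lower in Ring1B KO, by 2.16-, 2.60- and 2.29-fold, the only member at least 2-fold apart in that comparison. In double KO they read 297, 499 and 424, against 312, 494 and 363 in its control, differences of −0.07, 0.02 and 0.23. Tfap2c was the only member whose probe sets all read highest on the Ring1B KO control.

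Tead4, the most upstream of these factors (chromosome 6, 128227143 to 128300813), read 116 in double KO, against 198 in its control, and 159 in Ring1B KO, against 98.2 in its control. Its second probe set read 61.5 in double KO, against 109 in its control, and 75.6 in Ring1B KO, against 42.6 in its control. The probe sets gave like differences, −0.77 and −0.83 in double KO, and 0.70 and 0.83 in Ring1B KO, all under 2-fold.

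Hand1, the basic helix-loop-helix factor of giant cells and heart (chromosome 11, 57828713 to 57832147), read 32.2 in double KO, against 64.4 in its control, and 60.2 in Ring1B KO, against 47.4 in its control, by the probe set that stands for the gene. The second probe set read 37.7 in double KO, against 106 in its control, and 44.7 in Ring1B KO, against 7.81 in its control. Whether Hand1 counted as 2-fold apart in the double KO comparison therefore depended on the probe set, at least 1.76-fold lower by the first and 2.80-fold lower by the second.

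Ets2, a factor of the ERK pathway needed in trophoblast stem cells (chromosome 16, 95702407 to 95721049), read 550 in double KO, against 636 in its control, and 327 in Ring1B KO, against 358 in its control, by its brightest probe set. The differences were −0.21 and −0.13, both under 2-fold. A second probe set read 36.4 in double KO, against 49.2 in its control, and 59.8 in Ring1B KO, against 46.0 in its control, and the third was under the floor throughout. Elf5, the ETS factor that reinforces Cdx2 and Eomes in trophoblast stem cells (chromosome 2, 103412098 to 103450989), was under the floor with both probe sets on all arrays. The highest of its 8 values was 29.5, on the double KO control, and no difference was taken.

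**Figure D2:**
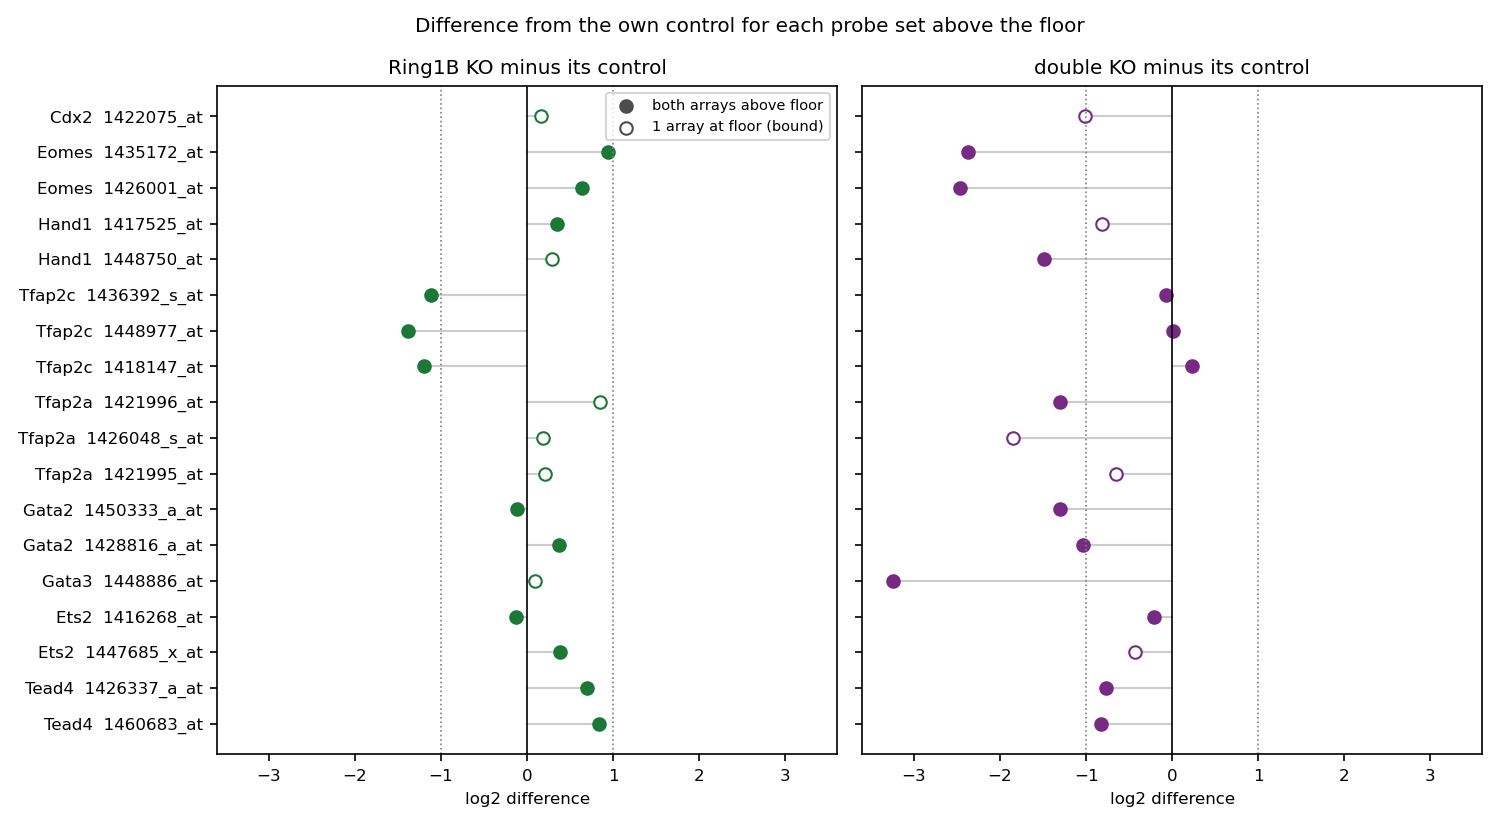
Log2 difference of each KO array from its own control (x axis) for the 18 probe sets above the floor on at least 1 array (rows); filled points have both arrays above the floor, open points are bounds, and dotted lines mark 2-fold. In the double KO comparison 9 probe sets lie at or beyond 2-fold lower and 0 beyond 2-fold higher, and in the Ring1B comparison only the 3 Tfap2c probe sets lie beyond either line.

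Few of these factors passed 2-fold in the array labelled Ring1B KO with the floor used here. Of the 9 genes above the floor on at least 1 array of this pair, 1 (Tfap2c) was lower by 2-fold or more and 0 higher by as much, against 2.6% lower and 3.57% higher among 12366 genes. The median was 0.16, against −0.02 over all genes, and 6 of the 9 were above 0, as were 48.2% of all genes. This median is again the value of Cdx2, a bound. Bounds were common, since Cdx2, Tfap2a and Gata3 had their control under the floor. With the floor at the 20th percentile these 3 genes were at least 2-fold higher, by 1.78 (Cdx2), 1.06 (Tfap2a) and 1.71 (Gata3) on the log2 scale. By probe set 3 of 18 were at least 2-fold lower, all of Tfap2c, against 2.51% of all, and 0 at least 2-fold higher, against 2.88%. In the double KO comparison 9 of 18 probe sets were at least 2-fold lower, against 8.37% of all, and 0 were higher, against 2.88%.

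Markers of some other cell types also differed in these comparisons, not always as the trophoblast factors did. Their part in the result was not tested. Of 14 fibroblast markers, 11 were at least 2-fold lower and 0 higher in double KO, against 10% and 3% of all genes. Their median was −1.74. Their summed signal was 9200 in double KO, against 12934 in its control, and most of the double KO sum was Fn1, fibronectin (6222 in double KO, against 5108 in its control). In the Ring1B comparison 0 of 13 were 2-fold apart, against 2.6% lower and 3.57% higher among all genes. Of the 13, 12 were above 0, as were 48.2% of all genes, with a median of 0.42, against −0.02 over all genes. The summed signal was 25245 in the KO, against 20218 in its control. Of 12 primitive endoderm markers, 7 were at least 2-fold lower and 1 higher in double KO, against 10% and 3% of all genes. The summed signal was 6039 in double KO, against 13872 in its control. In Ring1B KO 11 of 13 were at least 2-fold higher, against 3.57% of all genes. The summed signal there was 26571 in the KO, against 8982 in its control. Of 9 markers of mesoderm, where Eomes and Hand1 also act, 5 were at least 2-fold lower in double KO, against 10% of all genes. The summed signal was 880 in double KO, against 1610 in its control. In Ring1B KO 4 of 8 were at least 2-fold higher, against 3.57% of all genes, although the sum was lower (1278 in the KO, against 1487 in its control). The largest term of that sum was Bmp4 (589 in the KO, against 1065 in its control). Of the markers of surface ectoderm, where Tfap2a also acts, 5 were above the floor on at least 1 array of the double KO pair. Of these 1, Grhl2, was at least 2-fold higher in double KO and 0 lower, against 3% and 10% of all genes. Grhl2 read 1430 in double KO, against 645 in its control. Krt14, Trp63 and Dlx6 were under the floor on all arrays. None of these markers was listed at 0 on an array.

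The control arrays, both labelled wild-type, differed from each other at these genes about as much as the double KO array did from its control. In the double KO control 5 of 9 genes (Gata3, Eomes, Tfap2a, Cdx2 and Tead4) were at least 2-fold higher than in the Ring1B KO control and 1 (Tfap2c) at least 2-fold lower, against 12.2% higher and 8.19% lower (20.4% in either direction) among 12692 genes. Gata3 was at least 10.1-fold higher there, Eomes 5.31-fold, Tfap2a at least 3.09-fold, and Cdx2 and Tead4 2.02-fold each, that of Cdx2 as a bound. Tfap2c was 4.79-fold lower by the probe set that stands for it, but 1.90- and 1.69-fold lower by the others. This comparison shares the double KO control array with the double KO comparison, and it crosses the pairs, which were deposited on different scales. With the values as deposited the median of all measured genes became −1.44, against 0.14, and Hand1, Gata2, Ets2 and Tead4 turned to −1.19, −0.79, −0.81 and −0.63, all above that median.

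The double KO array was also set against the other control array. This comparison again crosses the pairs and shares the double KO array with the comparison to its own control. Of 8 genes above the floor, 1 (Tfap2c, 5.04-fold) was lower by 2-fold or more and 0 higher by as much, against 9.92% lower and 7.83% higher among 12303 genes. The other Tfap2c probe sets were 1.88- and 1.45-fold lower, so that call rests on 1 of 3 probe sets. By the probe sets that stand for them the other 7 genes lay between −0.46 (Gata2) and 0.62 (Ets2), of which Hand1, Tfap2a and Gata3 are bounds (Gata3 at least 0.10). Eomes differed by 0.04 at its brighter probe set and by −0.76 at the other, and Gata2 by −0.46 and 0.73, so both depend on the probe set. The Ring1B KO array, set against the double KO control, had 2 of 9 genes at least 2-fold lower (Gata3 9.54-fold, Eomes 2.76-fold) and 1 (Tfap2c, 2.22-fold) at least 2-fold higher, against 11.2% lower and 8.04% higher among 12588 genes. The other Tfap2c probe sets differed there by −0.45 and −0.43.

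**Figure D3:**
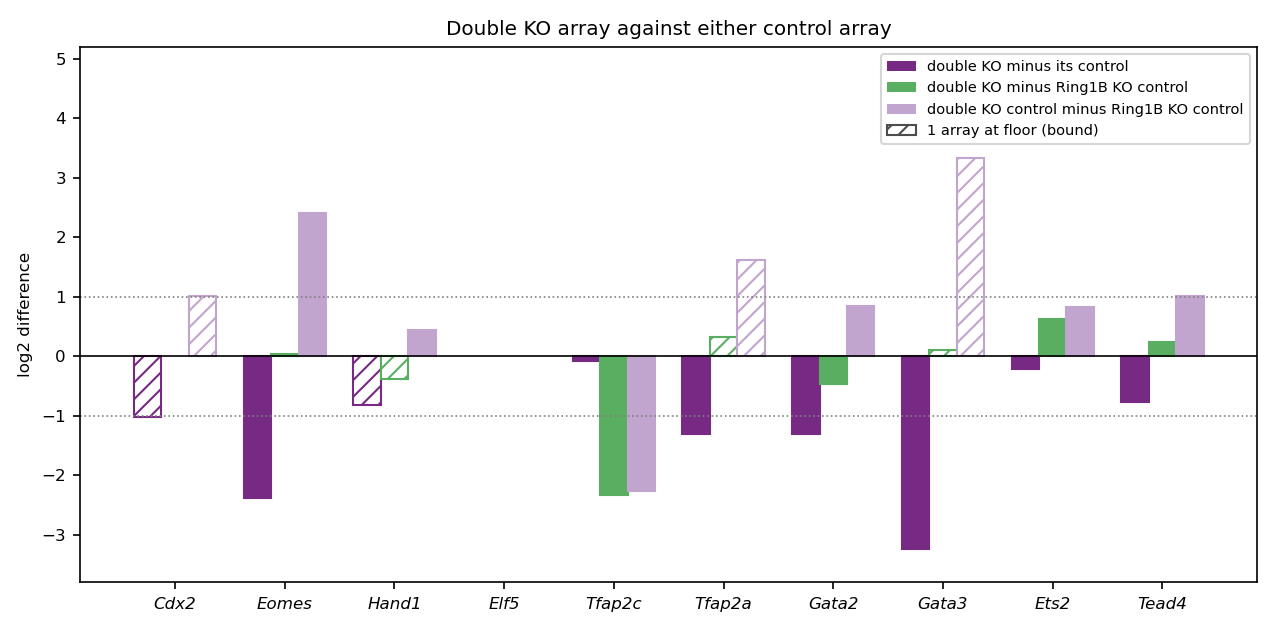
Log2 difference (y axis) of the double KO array from its own control and from the Ring1B KO control, and of the double KO control from the Ring1B KO control, for the probe set that stands for each gene; hatched bars are bounds, dotted lines mark 2-fold, and the 3 differences share arrays. Gata3 and Eomes differ by −3.24 and −2.37 from the own control and by 0.10 and 0.04 from the other, and Tfap2c differs by −2.33 from the other control by the probe set drawn.

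Other trophoblast regulators and receptors also had lower signals in the double KO array. Of 13 above the floor, 7 were at least 2-fold lower and 1 higher, against 10% and 3% of all genes, with a median of −1.05. The largest were Cited1, a transcriptional coactivator of the placenta (70.3 in double KO, against 484 in its control), Id2, an inhibitor of basic helix-loop-helix factors (305 in double KO, against 1677 in its control), and Esx1, a placental homeobox factor (80.5 in double KO, against 426 in its control). Fgfr2, the receptor through which FGF4 sustains trophoblast stem cells, was 2.53-fold lower. Hopx, a homeodomain-only protein, went the other way and was 2.76-fold higher. In the Ring1B comparison 3 of 11 were at least 2-fold higher and 0 lower, against 3.57% and 2.6% of all genes, namely Cited1 (3.62-fold), Hopx (2.35-fold) and Esx1 (2.23-fold), with a median of 0.43.

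Most structural and placental genes of the trophoblast read lower in double KO. There 9 of 14 were lower by 2-fold or more and 0 higher, against 10% and 3% of all genes, with a median of −1.52. Tinagl1, a basement membrane protein, read 84.5 in double KO, against 754 in its control. Mmp9, a matrix metalloproteinase of giant cells, read 77.5 in double KO, against 460 in its control, and Bmp8b, a BMP ligand, read 47.7 in double KO, against 267 in its control. Plac1 and Ctsq, genes of the differentiated placenta, were under the floor on all arrays, and Tpbpa, a spongiotrophoblast gene, exceeded it only in double KO (39.6). Phlda2, an imprinted placental gene, read 2631 to 3203 over the 4 arrays. In the Ring1B comparison, where 3.57% of all genes were higher and 2.6% lower, 2 of 13 were at least 2-fold higher (Krt8, a simple epithelial keratin, 2.57-fold, and Tinagl1 2.31-fold) and 1 lower (Cdh3, the placental cadherin, 2.16-fold), with a median of 0.44.

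By the 2-fold count the Hippo genes upstream of Tead4 stood nearer the background, but 12 of 14 were below 0 in double KO. Their median there was −0.57, against −0.05 over all genes, of which 54.7% were below 0. In double KO 2 of 14 were at least 2-fold lower, against 10% of all genes, both of the angiomotin family that holds Yap1 outside the nucleus: Amot (98.8 in double KO, against 391 in its control) and Amotl1 (312 in double KO, against 887 in its control). Amot was also the 1 of 14 at least 2-fold higher in Ring1B KO, against 3.57% of all genes (1407 in the KO, against 346 in its control). Over the 14 the Ring1B median was 0.40, against −0.02 over all genes. Yap1 itself differed by −0.09 in double KO and −0.11 in Ring1B KO. A further list held 10 ES cell factors drawn up as opposing trophoblast fate, a role not examined here for each gene. In double KO 1 of the 10 was at least 2-fold lower and 0 higher, against 10% and 3% of all genes. That 1 was Tbx3, which was 2.08-fold lower in double KO and 2.43-fold higher in Ring1B KO. Of the 10, 8 were above 0 in double KO, as were 45.3% of all genes. Pou5f1 read 7581 in double KO, against 4304 in its control (0.82), Sox2 differed by 0.82 and Nanog by 0.27.

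Paralogs of these factors also read lower in double KO, but fewer passed 2-fold. There all 11 measurable ones were below 0, with a median of −0.53. Of the 11, 3 were lower by 2-fold or more and 0 higher, against 10% and 3% of all genes. In Ring1B KO 4 of 10 were higher by 2-fold or more and 0 lower, against 3.57% and 2.6% of all genes. Cdx1, a caudal homeobox gene of the streak, read 89.2 in double KO, against 263 in its control, and 131 in Ring1B KO, against 46.7 in its control. Gata4 and Gata6, the GATA factors of primitive endoderm, were 3.45-fold and at least 11.3-fold lower in double KO, and 4.09-fold and 4.44-fold higher in Ring1B KO. Ets1, the nearest relative of Ets2, was 5.67-fold higher in Ring1B KO and under the floor in both arrays of the double KO pair. Tead1, Tead2 and Tead3 were under 2-fold apart in both comparisons.

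**Figure D4:**
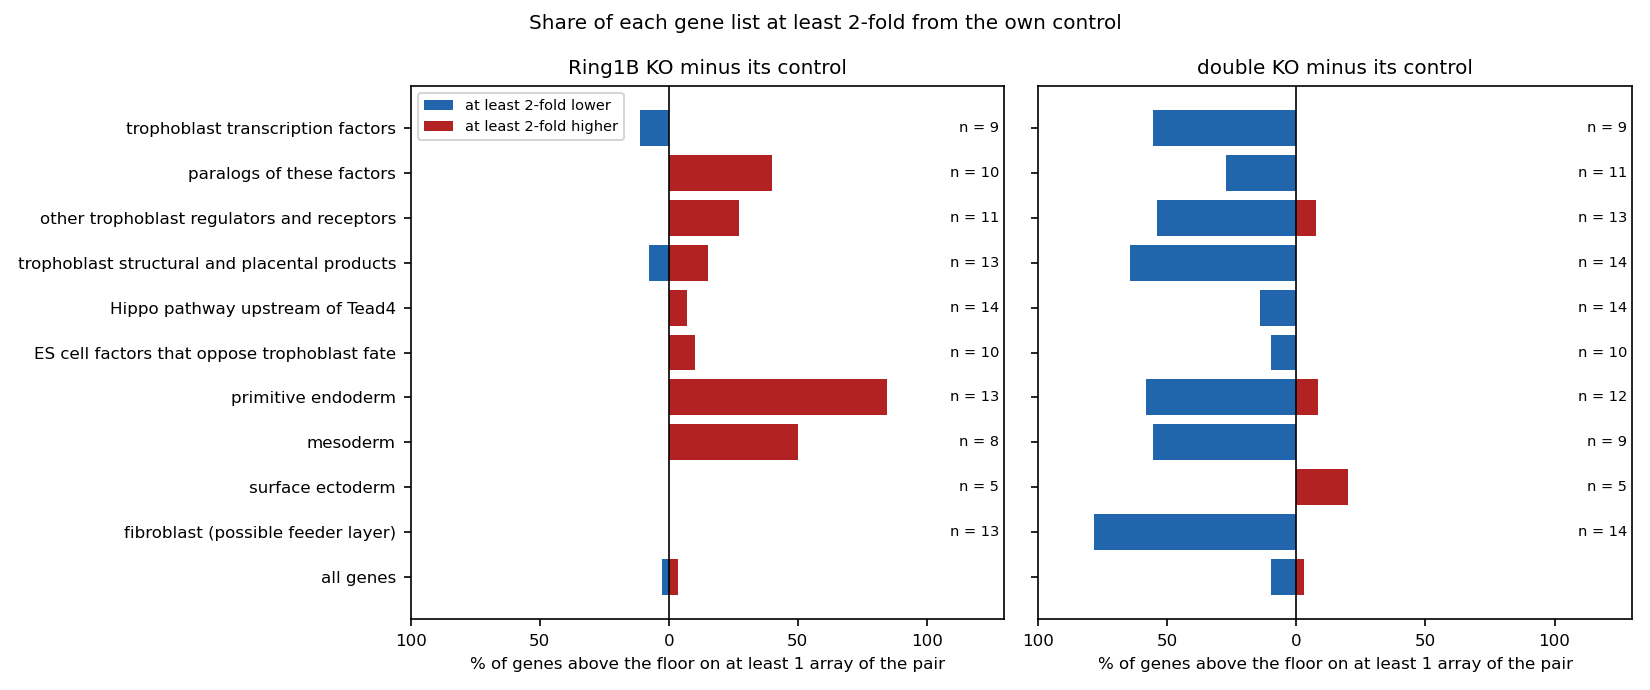
Percentage of the genes of each list, among those above the floor on at least 1 array of the pair (n), that were at least 2-fold lower (left of 0) or higher (right of 0) than the own control, with all genes in the bottom row. The trophoblast transcription factors had 5 of 9 genes lower in double KO, against 10% of all genes, and 0 of 9 higher in Ring1B KO, against 3.57% of all.

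The genes whose pattern over the 4 arrays was most like that of a member were sought among 10011 others above the floor on all arrays, by the root mean square difference of log2 signals centred on each gene's own mean. Eomes lay nearest to H2-Q10 (0.08), Plekhg4 (0.10) and Cgas (0.10), and Gata2 to Des (0.02), Cdc14b (0.03) and Uvssa (0.04). Tead4 lay nearest to Atn1 (0.05), Brf1 (0.05) and Tcaf2 (0.06), and Ets2 to Pip4k2b (0.02), Bcl2l14 (0.02) and Rabl6 (0.03). Tfap2c, with its high value on the Ring1B KO control, lay nearest to Pltp, Acot1 and Enpp4 (0.14 each). Among the 5 members themselves Gata2 and Tead4 were closest (0.35) and Eomes and Tfap2c farthest apart (1.66). Over only 4 arrays many genes come this close, so the likeness is a description of these arrays.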

How the data were processed

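RNA of 4 ES cell samples was labelled with a one-cycle kit and hybridised to Affymetrix mouse expression arrays, per the labels' protocols. Each deposited value is a linear signal intensity per probe set, which the authors obtained with MAS5, per the submitters' processing notes; version, target and detection calls are not given in the sources used here. Gene symbols came from GEO's platform annotation: 34958 probe sets had 1 symbol, 932 several and 9211 none, and 34754 Entrez identifiers matched RefSeq, changing 0 symbols.

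Arrays were scaled to a common 2%-trimmed mean (277), floored at the 40th percentile (36.6) and log2-transformed (Python 3.11.15, numpy 2.4.6, pandas 2.3.3). Scaling assumes like summed signal per array, and the floor shrinks differences of dim genes. The probe set with the highest mean log2 signal stood for a gene. Groups came from the labels, 1 array each, so no test was possible and differences of at least 2-fold were counted. The steps were tested on simulated data.

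Members, lists and settings were chosen with earlier results of these data known. Named genes were all members, the targeted genes, Pou5f1, Nanog, Sox2 and Fgfr2, and up to 3 genes per list and direction past 2-fold, besides values given to describe a list. Tead1 to Tead3, Yap1, Ets1, Plac1, Ctsq, Tpbpa, Krt14, Trp63, Dlx6, Phlda2, Fn1, Rhox6, Mesp1, Tbx6 and Bmp4 were named after their values were seen. The 7 alternatives were 2 other scalings, the values as deposited, 2 other floors and 2 other choices of probe set. List genes with no name on the array, such as Gcm1 and Prl3d1, were not analysed here. Gata4, Gata6 and Msx1 stand in 2 lists.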

Additional observations from a re-analysis of the deposited data

Results flagged for a closer look

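For 6 of the 9 members with a difference in both comparisons, the double KO and the Ring1B KO arrays stood on opposite sides of their own controls. Over all 11611 genes with a difference in both, 62.1% did so, so the count of 6 of 9 is near the background. With 1 array on each side the difference between the comparisons was not tested. Gata3 differed by −3.24 in double KO and by at least 0.087 in Ring1B KO, and Eomes by −2.37 in double KO and 0.94 in Ring1B KO. Tfap2a differed by −1.30 in double KO and by at least 0.84 in Ring1B KO, and Cdx2 by at least −1.01 in double KO and at least 0.16 in Ring1B KO. Tead4 differed by −0.77 in double KO and 0.70 in Ring1B KO, and Hand1 by at least −0.82 in double KO and 0.34 in Ring1B KO.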

How the results depend on the processing

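No paired analysis was possible because each group is 1 array, and no array could be left out. Under the 7 alternatives, 0 members were at least 2-fold higher in double KO. The 5 members at least 2-fold lower in double KO became 3 with the values as deposited (9.83% of all genes) and 2 (Gata3 and Eomes) under a 60th-percentile floor (5.80% of all genes), where the median was −0.47 in place of −1.01 because dim signals are then set to the floor. In the Ring1B comparison 0 members at least 2-fold higher became 1 with the values as deposited (4.28% of all genes; median 0.70 in place of 0.16) and 3 under the 20th-percentile floor (5.63% of all genes; median 0.52). Tfap2c was the 1 member lower in Ring1B KO under all 7 alternatives. The 6 members at least 2-fold apart between the controls became 3 with the values as deposited, where 65.2% of all genes were lower and 0.70% higher, and also 3 under the 60th-percentile floor (6.78% lower and 10.4% higher). Tead4 between the controls turned to −0.63 with the values as deposited, which leave the pairs on different scales. In double KO Gata2 fell short of 2-fold under quantile normalization (−0.996) and the 60th-percentile floor (−0.47). Tfap2a did so with the values as deposited (−0.80) and the 60th-percentile floor (−0.06). Cdx2 in double KO fell short of 2-fold with the values as deposited (−0.19), a common median (−0.98) and the mean over probe sets (−0.51). Hand1 passed 2-fold with a common median (−1.20), quantile normalization (−1.24) and the mean over probe sets (−1.15). The mean over probe sets takes in the second probe set of each gene, under the floor on all arrays for Cdx2 and 2.80-fold lower in double KO for Hand1. As deposited, Cdx2 read 42.7 in the double KO control, near the floor of 37.5 used with those values. The probe set that stands for a gene was chosen anew under each scaling. Under the common median the Hand1 value was that of its second probe set, which differed by −1.49 with the scaling used here. That value moved up as Eomes did, from −2.37 to −2.08. For Cdx2 under the common median, and for quantile normalization, the cause was not tested. Elf5 had a difference only under the 20th-percentile floor. Signal over background limits Cdx2, Tfap2a, Hand1, Gata3 and Elf5, which were at or near the floor on at least 2 arrays.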

Other observations

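Of the 10 mesoderm markers above the floor on at least 1 control array, 7 read higher on the double KO control and 3 lower. All 7, among them Msx2, Twist1 and Tbx20, read highest of the 4 arrays on the double KO control, as most of the trophoblast factors did. That array read highest for 31.9% of all genes. The 3 others, Mesp1, Tbx6 and Bmp4, read highest on the Ring1B KO control (65.7, 39.3 and 1065). There was no error estimate, and Twist1 and Tbx20 read nearly as high on the Ring1B KO array. Msx2, a homeobox gene and BMP target, read 52.2 in double KO, against 189 in its control, and 142 in Ring1B KO, against 55.0 in its control. Twist1, a basic helix-loop-helix gene of mesoderm, read 43.6 in double KO, against 122 in its control, and 114 in Ring1B KO, against 37.3 in its control. Tbx20, a T-box gene of the heart, read 21.3 in double KO, against 139 in its control, and 130 in Ring1B KO, against 53.7 in its control. Msx2, Twist1 and Tbx20 were also over 2-fold higher in Ring1B KO than in its control, by 2.59-, 3.05- and 2.42-fold.

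Rhox6, a homeobox gene of the placenta, read 510 in double KO, against 1579 in its control, and 173 in Ring1B KO, against 335 in its control. It was lower in both KO arrays than in their own controls, by 3.09-fold and 1.94-fold.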
